A study of Mus musculus with 6 samples.

Results

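The Wnt genes examined here are the secreted ligands, their receptors and co-receptors, their secreted antagonists, the nuclear factors that carry the signal and a pair of feedback target genes. They were taken from the gene table by symbol: every Wnt, Fzd, Sfrp, Dkk and Rspo gene, the receptors Lgr4, Lgr5 and Lgr6, and 11 further genes that were listed by name, which gave 55 of the 23107 genes in the table. The rule reads gene symbols only, although it was written with earlier results of these data known. RNA of aortic valves from mice aged 4 months was sequenced, with 3 control and 3 mutant libraries and 1 library per replicate. The mutants, labelled Acvr1:Nfatc1Cre, carried a Cre-activated transgene for a constitutively active form of Acvr1, a BMP type I receptor, together with Nfatc1Cre, a Cre cassette knocked into the Nfatc1 locus. The labels call the controls wild type and give the strain of all mice as outbred, whereas the methods of the study allow 3 control genotypes that lack the transgene, the Cre or both, without saying which were sequenced. Nfatc1Cre acts in the endocardium, in the mesenchyme and valvular interstitial cells (VICs) derived from it and in cells at the junction of leaflet and wall, so the transgene was not switched on in all cells of the tissue. Sex, pooling of mice and sequencing batch are not stated, and p-values therefore measure only the spread between these libraries.

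Wnt proteins are lipid-modified ligands that bind a Frizzled receptor together with the co-receptor Lrp5 or Lrp6. In the canonical branch this stops the degradation of beta-catenin, which enters the nucleus and, with Tcf and Lef proteins, switches on targets such as Axin2 and Nkd1, whose products dampen the signal again. Sfrp proteins, Frzb and Wif1 bind the ligands, Dkk1 and Dkk2 act on the Lrp co-receptors, Notum removes the lipid from the ligands, and R-spondins bound to Lgr receptors keep Frizzled proteins at the cell surface. Wnt signals take part in the growth and remodelling of the valve primordia in the embryo, and the pathway has been studied in valve calcification.

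The promoters of 3 genes that the study names from this pathway are shown because they are the ligand with the widest group difference, the standard transcriptional target and the most abundant Frizzled receptor. Each window covers 250 bases before and 50 bases after the transcription start in the RefSeq annotation of GRCm38.p6 and is written in the direction of the gene. Capitals mark the letters CTTTGA, the core bound by Tcf and Lef proteins, searched on both strands, so that the reverse complement TCAAAG is also a match. The Wnt7a window lies at chr6:91411304-91411603 on the minus strand and holds 76.0% G and C, 42 CpG pairs and no match. The Axin2 window lies at chr11:108920099-108920398 on the plus strand and holds 70.0% G and C, 31 CpG pairs and no match. The Fzd1 window lies at chr5:4758167-4758466 on the minus strand and holds 54.0% G and C, 16 CpG pairs and 1 match, on the opposite strand.
Wnt7a: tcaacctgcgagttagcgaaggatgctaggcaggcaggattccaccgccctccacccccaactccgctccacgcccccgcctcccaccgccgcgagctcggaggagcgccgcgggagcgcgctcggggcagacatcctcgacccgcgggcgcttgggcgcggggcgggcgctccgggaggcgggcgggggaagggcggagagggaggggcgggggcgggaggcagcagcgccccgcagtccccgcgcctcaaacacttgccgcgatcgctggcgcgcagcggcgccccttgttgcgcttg
Axin2: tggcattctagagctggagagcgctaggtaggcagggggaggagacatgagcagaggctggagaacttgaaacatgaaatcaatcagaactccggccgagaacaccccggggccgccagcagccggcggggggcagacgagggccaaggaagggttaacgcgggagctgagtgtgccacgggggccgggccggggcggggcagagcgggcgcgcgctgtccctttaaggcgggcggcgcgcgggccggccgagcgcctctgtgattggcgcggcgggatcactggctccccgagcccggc
Fzd1: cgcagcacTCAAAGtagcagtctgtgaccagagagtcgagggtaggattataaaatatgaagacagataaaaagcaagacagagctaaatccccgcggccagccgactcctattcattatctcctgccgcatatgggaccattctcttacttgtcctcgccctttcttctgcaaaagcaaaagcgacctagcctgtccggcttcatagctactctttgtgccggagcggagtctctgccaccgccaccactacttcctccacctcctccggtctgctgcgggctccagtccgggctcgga

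Among the Wnt genes, 37 of 55 were matched to such windows, 45 windows in all, and the Tcf and Lef core was present in 6 of them (13.3%), in Frzb, Lef1, Fzd1, Wnt5b, Wnt11 and Dkk1. The share over all 32851 windows of the same length was 16.0%. The windows of Wnt genes were richer in G and C, with a median of 67.3% against 52.7%, and held a median of 24 CpG pairs against 7. A match describes these letters only, and no match says nothing about binding.

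The libraries held 32218345 to 55728852 fragments, and a count of 0 allows up to 0.0538 to 0.0931 CPM, the counts scaled to a common library total. This floor is a share of the library total without TMM scaling and covers counting error only, while all CPM levels are scaled with the TMM factors of edgeR. Markers of VICs summed to 15064–16141 CPM in controls and 13290–17177 CPM in mutants, and those of endothelium to 1420–2311 and 1716–1965 CPM. Markers of cardiac muscle, none of them at 0, summed to 12635–39683 and 19916–41981 CPM, and those of smooth muscle to 7090–14389 and 3888–7226 CPM. Of the 8 smooth muscle markers, 3 were lower in every mutant (37.5%, beside 4.83% of all genes), Smtn, Myh11 and Tagln, 7 had a log2 fold change below 0, and the median was -0.87. The sum of the macrophage markers was higher in every mutant (1452–1632 against 1914–2070 CPM), and of these 9 genes 5 were higher in every mutant (55.6%, beside 4.04% of all genes), 4 overlapped, none was at 0 and 1, Lyz2, was called by DESeq2. Markers of B and plasma cells had a log2 fold change above 0 in 6 of 6 genes (median 1.05, with Igj higher in every mutant and called by DESeq2), those of melanocytes in 6 of 6 (median 0.62, with Mitf higher in every mutant), those of adipocytes in 0 of 7 (median -0.43) and those of mesothelium in 0 of 8 (median -0.74), and the sums of these 4 lists overlapped between the groups. The part of these cell types in the differences between groups given for Wnt genes was not tested. In such bulk samples, a change in the number of cells of a type and a change in RNA per cell cannot be told apart. The counts do not separate transgenic from endogenous Acvr1, which stood at 49.1, 60.5 and 67.4 CPM in controls and 56.5, 57.9 and 49.9 CPM in mutants.

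Of the 55 genes, 46 passed the filter of at least 10 counts in at least 3 libraries and were tested, and 9 were not. Dkk4, Rspo4, Wnt3a and Wnt8a had no count in any library. Wnt3 had 2 counts and Wnt8b 1 count, each in a single library. Dkk1 had 6, 8 and 2 counts in controls and 2, 8 and 22 in mutants, Wnt1 had 21, 0 and 11 against 8, 0 and 0, and Wnt10a had 7, 6 and 3 against 0, 6 and 0. All 10 Frizzled genes, both Lrp genes and all 4 nuclear factors were tested, beside 13 of 19 ligands, 6 of 7 R-spondin and Lgr genes and 9 of 11 antagonists.

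Levels were compared between genes as CPM per kb of exon. In the controls, 14 of the 46 tested genes stood at 10 or more CPM per kb, 22 from 1 to 10 and 10 under 1. The antagonists led. Dkk3, a Dickkopf family member that does not act like Dkk1 on Lrp6, had the highest level at 345 ± 102 CPM per kb (SD, n = 3) and held 41.0% of the summed level of all Wnt genes in the controls and 41.1% in the mutants. Wif1, which binds Wnt ligands directly, followed at 112 ± 52.3 CPM per kb, ahead of Sfrp2 at 34.5 ± 8.43 and Sfrp1 at 33.7 ± 5.89. Fzd1 led the Frizzled genes at 31.3 ± 9.57 CPM per kb with 36.2% of their summed level, and Wnt9b led the ligands at 30.5 ± 0.83 CPM per kb with 35.2% of theirs. The feedback target Nkd1 stood at 29.0 ± 4.33 CPM per kb, well above Axin2, which stood at 1.70 to 2.52 CPM per kb in the 3 controls. Along this order, 41 of 45 neighbouring pairs overlapped between their control libraries. The pairs that did not overlap were Dkk3 above Wif1, Wif1 above Sfrp2, Wnt16 above Lrp5 and Wnt7a above Notum.

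**Figure D1:**
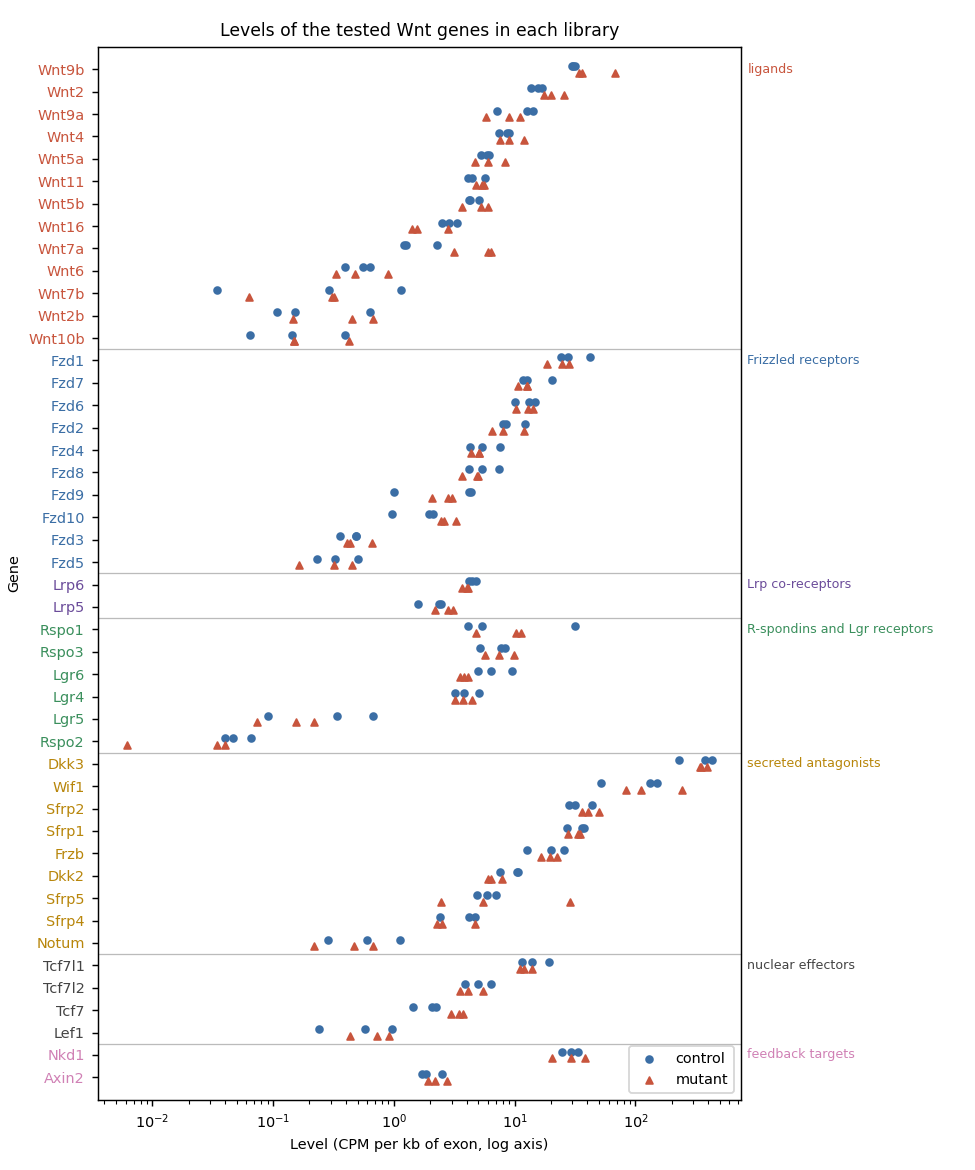
Level of each tested Wnt gene in CPM per kb of exon (log axis), 1 point per library, with genes grouped by role and controls and mutants in separate colours. Dkk3 has the highest level in every library, and most neighbouring genes overlap.

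The comparison of mutants with controls asked whether constitutive Acvr1 activity went with altered expression of Wnt genes. No Wnt gene passed the test: 0 of 46 had an adjusted p under 0.05 in edgeR's quasi-likelihood test, the smallest being 0.999, where 0.0% of the 15354 genes tested passed. At an unadjusted p under 0.05 stood 5 of the 46 (10.9%), Wnt7a, Lgr6, Tcf7, Dkk2 and Wnt2, beside 3.45% of all genes. DESeq2 passed 0.169% of the genes it tested, 26 in all, and 1 of them was a Wnt gene, Wnt7a, with an adjusted p of 0.00709. The mutant libraries all lay above the controls in 5 Wnt genes (10.9%, beside 4.04% of all genes), Wnt7a, Wnt2, Wnt9b, Fzd10 and Tcf7. They all lay below the controls in 3 (6.52%, beside 4.83%), Lgr6, Lrp6 and Rspo2. With library totals in place of TMM, Lrp6, Rspo2 and Wnt2 overlapped, leaving 1 lower gene and 4 higher genes. Without control replicate 1 or 2, which leaves fewer values to overlap, 6 Wnt genes were lower in every mutant, and 7 and 6 were higher. The all-gene shares with 5 libraries were not computed, so these counts cannot be set against a background. For any single gene, the smallest p that an exact two-sided permutation test of 3 against 3 libraries can give is 0.1. The median log2 fold change, mutants against controls throughout, was -0.016 over the 46 genes, with 23 above 0 and 23 below, and 0.0097 over all genes. Lgr6, Tcf7 and Wnt7a kept an unadjusted p under 0.05 when any 1 library was left out. Wnt2 stayed under 0.05 in only 3 of the 6 such fits and Dkk2 in only 2. Without control replicate 3 the count of Wnt genes under 0.05 was 3, beside 3.11% of all genes in that fit.

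**Figure D2:**
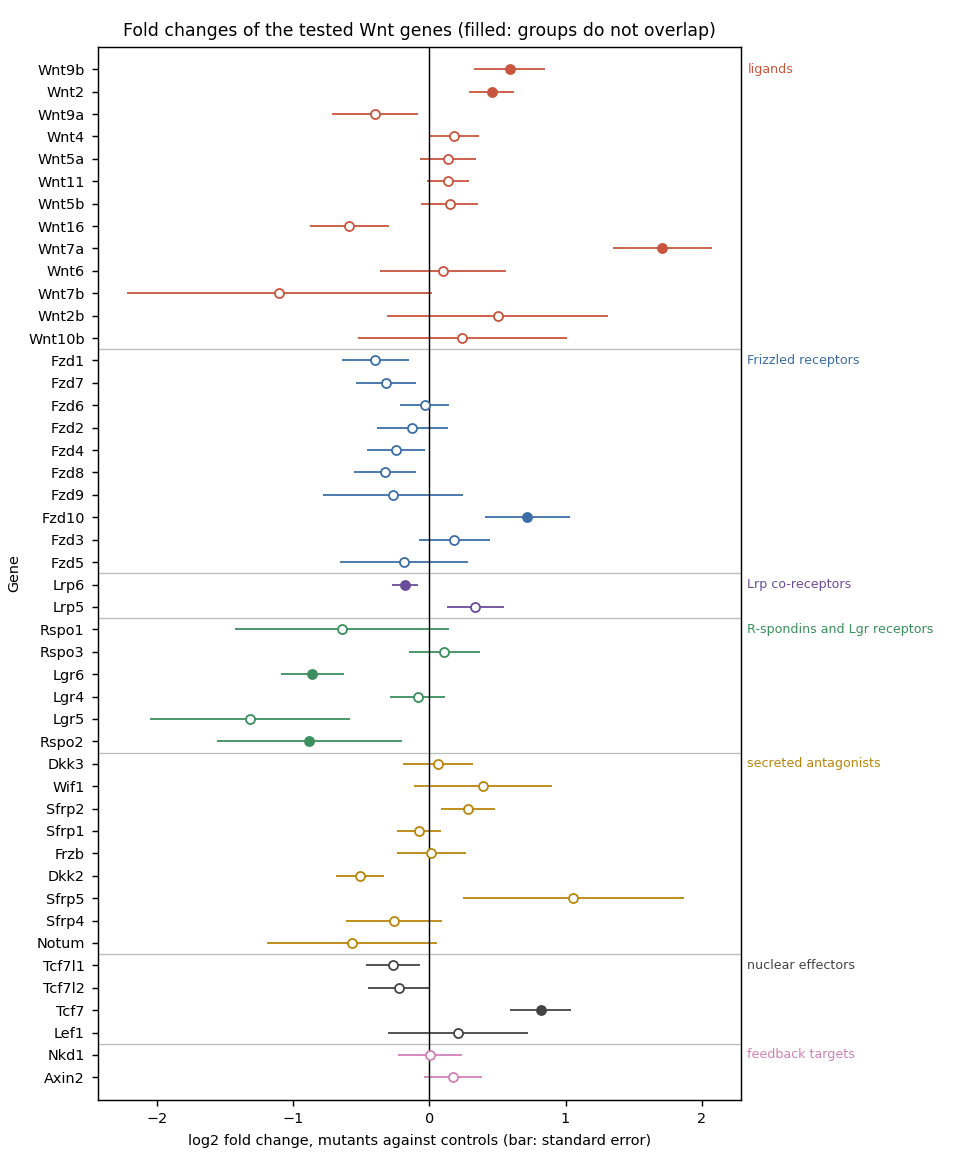
Log2 fold change of each tested Wnt gene, mutants against controls, with its standard error (SE), grouped by role. Filled points mark the 8 genes whose groups did not overlap, and the values run from -1.32 for Lgr5 to 1.71 for Wnt7a.

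**Figure D3:**
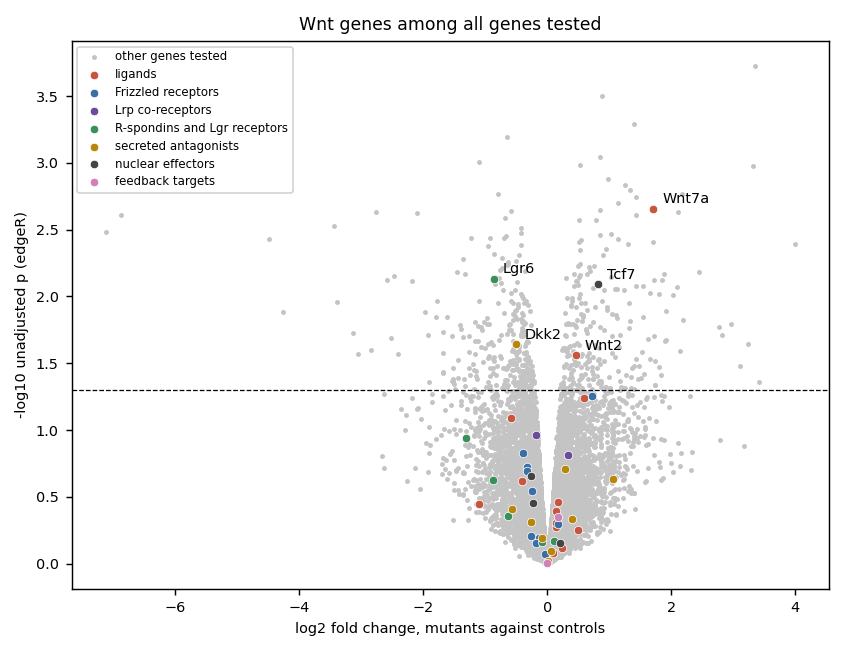
Log2 fold change (horizontal) against −log10 of the unadjusted edgeR p (vertical) for all 15354 genes tested, with the Wnt genes marked. Wnt7a has the smallest p of the Wnt genes, and the Wnt genes lie on both sides of 0.

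Among the 13 tested ligands, 3 were higher in every mutant than in any control (23.1%, beside 4.04% of all genes) and 0 were lower (4.83% of all genes). Wnt7a, a ligand known for limb patterning and the nervous system, stood at 3.99, 3.88 and 7.24 CPM in controls and at 20.3, 19.1 and 9.95 CPM in mutants. The lowest mutant, replicate 3, lay closest to the highest control, replicate 3. The mean ratio was 3.27 and the log2 fold change 1.71 (SE 0.36), between 1.53 and 2.06 with any 1 library left out. By p it ranked 16 of the 15354 genes and by the size of its fold change 96. Per length it stood at place 9 among the ligands in controls and at place 7 in mutants. Its share of the summed ligand level was 1.36–2.78% in controls and 3.28–7.05% in mutants, so that these shares did not overlap either.

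Wnt2, a canonical ligand best known from lung and placental vessels, stood at 30.6, 37.7 and 35.1 CPM in controls and 45.1, 57.8 and 39.2 CPM in mutants. Control replicate 2 and mutant replicate 3 were the nearest pair. Its log2 fold change was 0.46 (SE 0.16), and 0.29 without mutant replicate 2. Wnt9b, a ligand known from the endocardium of developing valves, stood at 134, 142 and 137 CPM in controls and 155, 304 and 163 CPM in mutants. The controls were nearly level, with an SD of 0.04 on the log2 CPM scale, while mutant replicate 2 stood far above the other mutants. The log2 fold change of 0.59 (SE 0.26) was 0.21 without that library.

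Wnt9a, the third ligand by level, stood at 47.5, 42.2 and 24.0 CPM in controls and 19.4, 30.1 and 36.8 CPM in mutants, overlapping widely (log2 fold change -0.40, SE 0.31). Next came Wnt4, Wnt5a, Wnt11 and Wnt5b, of which Wnt5a, Wnt5b and Wnt11 are best known for beta-catenin-independent signals, with log2 fold changes between 0.14 and 0.18. Wnt16 had -0.59 (SE 0.29), Wnt7b -1.10 (SE 1.12), Wnt2b 0.50 (SE 0.81), Wnt10b 0.24 (SE 0.77) and Wnt6 0.10 (SE 0.46), all with overlapping groups. In all, 10 of 13 ligands had a value above 0, with a median of 0.15, and without mutant replicate 2 this was 7 of 13.

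**Figure D4:**
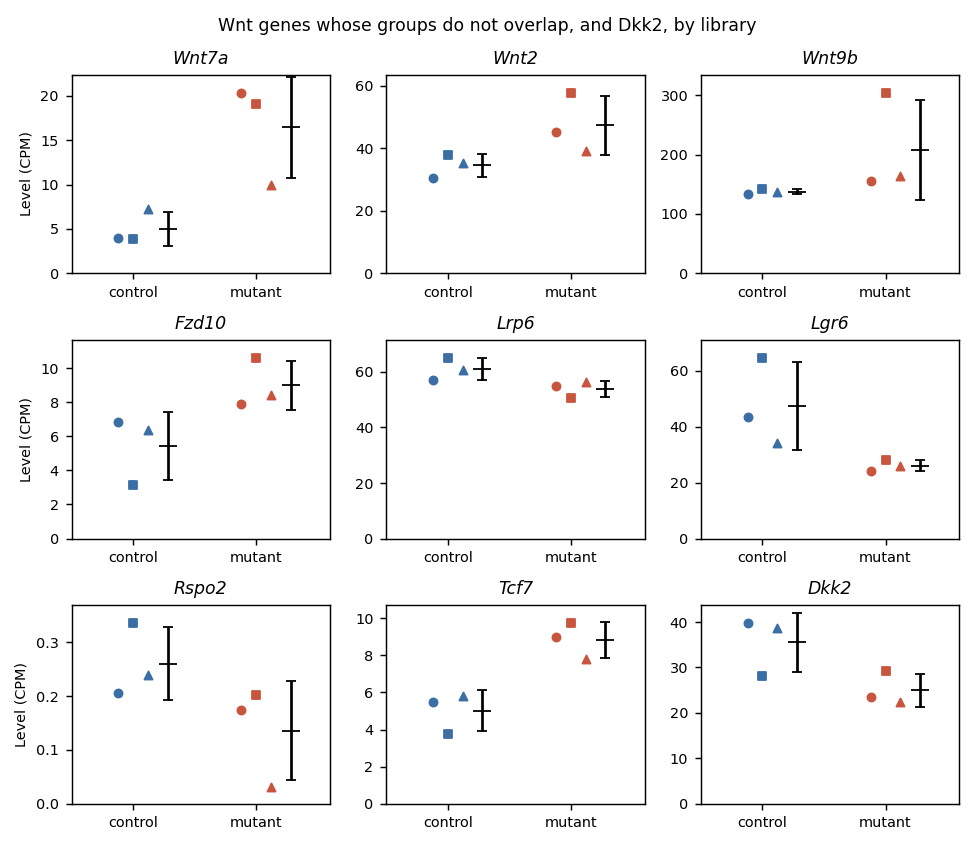
TMM-scaled CPM in each library for the 8 Wnt genes whose groups did not overlap and for Dkk2, whose groups overlap. The marker shape gives the replicate number (1 circle, 2 square, 3 triangle), and bars give the mean ± SD of 3 libraries. Wnt7a, Wnt2, Wnt9b, Fzd10 and Tcf7 are higher in every mutant, and Lgr6, Lrp6 and Rspo2 are lower.

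Of the 10 Frizzled receptors, 8 had a log2 fold change below 0, with a median of -0.21, but this direction rested on 1 control. Control replicate 2 had the highest value of all 6 libraries in 7 of the 10 genes, and mutant replicate 1 the lowest in 5. Without control replicate 2, 4 of the 10 lay below 0 and the median was 0.047. Fzd1 stood at 116, 177 and 101 CPM in controls and 77.3, 119 and 103 CPM in mutants. Its groups overlapped, and its log2 fold change of -0.40 (SE 0.25) was -0.12 without control replicate 2. Fzd7 stood at 57.4, 92.7 and 52.9 against 48.3, 57.0 and 57.4 CPM, and its value of -0.32 (SE 0.22) was -0.021 without that control. Fzd6 stood at 48.8, 71.2 and 63.3 against 67.8, 61.9 and 49.0 CPM (log2 fold change -0.035, SE 0.18).

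Fzd10, in contrast, was higher in every mutant. It stood at 6.81, 3.16 and 6.39 CPM in controls and 7.92, 10.6 and 8.45 CPM in mutants, without overlap. The log2 fold change was 0.72 (SE 0.31), and 0.45 without control replicate 2, its lowest library. The other Frizzled genes, Fzd2, Fzd3, Fzd4, Fzd5, Fzd8 and Fzd9, had log2 fold changes from -0.33 to 0.18, with overlapping groups.

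The co-receptor Lrp6 stood at 57.0, 65.1 and 60.8 CPM in controls and 54.8, 50.5 and 56.3 CPM in mutants. The groups did not overlap, but did so with library totals in place of TMM, and the difference was small, with a log2 fold change of -0.18 (SE 0.10), and control replicate 1 lay just above mutant replicate 3. Lrp5, its relative with a known role in bone mass, stood at 15.5, 24.0 and 22.9 against 21.1, 27.5 and 30.3 CPM (log2 fold change 0.34, SE 0.21).

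Lgr6, an R-spondin receptor, was lower in every mutant. It stood at 43.4, 64.6 and 34.0 CPM in controls and at 24.3, 28.0 and 26.0 CPM in mutants, and the mutants lay close together, with a mean of 26.1 ± 1.84 CPM (SD, n = 3) against 47.3 ± 15.7 CPM. The log2 fold change was -0.86 (SE 0.23), and -0.57 without control replicate 2. In DESeq2 its adjusted p was 0.197. The other receptors of this kind showed no such separation, with Lgr4 at 18.9–29.7 CPM in controls and 18.8–26.2 CPM in mutants and Lgr5 at 0.93–6.94 and 0.75–2.23 CPM (log2 fold change -1.32, SE 0.73).

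Of the R-spondins, Rspo3 stood at 23.9, 15.8 and 25.9 CPM in controls and 17.5, 30.4 and 23.1 CPM in mutants (log2 fold change 0.11, SE 0.26). Rspo2 had only 11, 17 and 11 counts in controls and 9, 8 and 1 in mutants (log2 fold change -0.88, SE 0.68). Counts this low leave it the least precisely measured of the genes with groups apart. Rspo1 stood at 7.91, 61.0 and 10.4 CPM in controls and 9.19, 19.9 and 21.9 CPM in mutants. Control replicate 2 was far above all other libraries, and the log2 fold change of -0.64 (SE 0.79) was 0.90 without it.

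Rspo1 followed the markers of mesothelium, the cell layer that covers the outer surface of the heart and the inner face of the pericardium. The 8 markers summed to 148, 1412 and 276 CPM in controls and 167, 425 and 597 CPM in mutants, and none was at 0. The order of the 6 libraries was compared between the 46 Wnt genes and the sums of 11 marker lists. Rspo1 and Wnt7b matched the mesothelium sum, an order that 0.456% of all genes shared. Fzd10 matched macrophages (0.202% of all genes), Wnt2b matched Schwann cells (0.176%), and 8 lists had no match. Wnt7b stood at 0.17, 5.58 and 1.44 CPM in controls and 0.31, 1.49 and 1.57 CPM in mutants, and its 33.2-fold range was the widest of the tested Wnt genes. With so many pairs compared, after the values were seen, these matches are a description only, and the part of mesothelium in these levels was not tested.

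**Figure D5:**
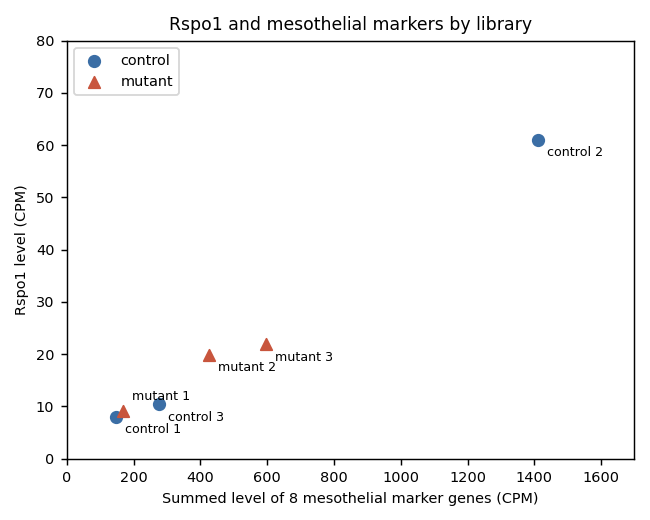
Rspo1 level (CPM) against the summed level of 8 mesothelium markers (CPM) in each of the 6 libraries, with blue circles for controls and red triangles for mutants. Control replicate 2 is highest on both axes, and the 6 libraries stand in the same order on each.

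Among the 9 tested antagonists, 0 were higher in every mutant and 0 lower, beside 4.04% and 4.83% of all genes, shares at which few of 9 genes would stand apart. Dkk3 stood at 1438, 777 and 1265 CPM in controls and 1155, 1161 and 1326 CPM in mutants, with a log2 fold change of 0.065 (SE 0.26). Wif1 stood at 365, 127 and 321 CPM in controls and 202, 594 and 271 CPM in mutants. Control replicate 2 was its lowest library and mutant replicate 2 its highest, and the log2 fold change of 0.39 (SE 0.51) was -0.20 without the latter. Sfrp2 stood at 94.8, 60.4 and 67.7 against 87.8, 77.0 and 107 CPM (log2 fold change 0.28, SE 0.20).

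Dkk2, which acts on Lrp5 and Lrp6, stood at 39.8, 28.1 and 38.7 CPM in controls and 23.4, 29.1 and 22.3 CPM in mutants. Only control replicate 2 and mutant replicate 2 crossed, and the log2 fold change was -0.51 (SE 0.18), between -0.65 and -0.42 with any 1 library left out. Sfrp5 had the largest log2 fold change of the antagonists, 1.06 (SE 0.81), with 11.2, 9.20 and 13.3 CPM in controls and 54.8, 4.68 and 10.3 CPM in mutants, so that a single mutant carried it. Sfrp1, Frzb, Sfrp4 and Notum had values from -0.57 to 0.013, with overlapping groups.

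Tcf7, a partner of beta-catenin that is also prominent in T cells, was the only nuclear factor with groups apart. It stood at 5.47, 3.78 and 5.83 CPM in controls and 9.0, 9.74 and 7.82 CPM in mutants. The log2 fold change was 0.82 (SE 0.22), between 0.65 and 0.94 with any 1 library left out, and the adjusted p in DESeq2 was 0.191. Tcf7 held 5.28–11.6% of the summed level per length of the 4 nuclear factors in controls and 12.9–18.5% in mutants. Tcf7l1, the most abundant of them, stood at 44.7, 75.4 and 54.2 against 43.8, 46.7 and 54.4 CPM (log2 fold change -0.27, SE 0.20), and Tcf7l2 at 34.0, 56.1 and 44.0 against 30.9, 35.9 and 47.9 CPM (-0.23, SE 0.23). Without control replicate 2 these values were -0.032 and -0.027. Lef1 stood at 5.11, 2.1 and 8.52 against 3.78, 8.05 and 6.37 CPM (0.21, SE 0.52).

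Both feedback targets overlapped between the groups. Axin2 stood at 10.2, 9.37 and 13.9 CPM in controls and 12.0, 15.1 and 10.5 CPM in mutants, with a log2 fold change between 0.017 and 0.36 when any 1 library was left out. Nkd1 stood at 112, 152 and 133 CPM in controls and 92.3, 173 and 132 CPM in mutants (log2 fold change 0.0044, SE 0.23).

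The spread between replicates limits these comparisons. The median SD of log2 CPM of the Wnt genes was 0.37 in controls and 0.35 in mutants, against 0.21 and 0.22 over all genes tested. Control replicate 2 was the highest library in 32.6% of the 46 Wnt genes and the lowest in 28.3% (24.4% and 24.9% of all genes), and mutant replicate 1 was the lowest in 32.6% (20.1%). Axin2, Fzd5, Fzd6, Lef1, Notum, Rspo3, Sfrp2, Tcf7l1, Wnt11, Wnt5a and Wnt7b share exon sequence with a gene on the opposite strand, and the strand setting of the counting is not stated, so fragments of the partners cannot be told apart.

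Other genes of the pathway were read from 4 lists, none of which held a gene with an adjusted p under 0.05 in edgeR or DESeq2. Of 20 genes for Wnt secretion and membrane partners, 0 were higher in every mutant and 0 lower (4.04% and 4.83% of all genes). At these shares few of 20 genes would stand apart. An unadjusted p under 0.05 was reached by 2 of the 20 (beside 3.45% of all genes), and by 0 without control replicate 1. These were Gpr124 (also Adgra2), a Wnt7 co-receptor subunit of endothelium, with 9.87, 15.9 and 12.0 CPM in controls and 14.4, 27.1 and 36.3 CPM in mutants, and Apcdd1, a membrane inhibitor, with 30.7, 24.7 and 45.5 against 37.0, 68.2 and 63.4 CPM. Of 31 genes of the beta-catenin core, 4 were lower in every mutant (12.9%, beside 4.83% of all genes) and 0 were higher (4.04% of all genes), while 1, Dact1, had an unadjusted p under 0.05 (3.23%, beside 3.45% of all genes). Of the 4 lower genes, Dact1, a Dishevelled partner, had a log2 fold change of -0.47 (SE 0.14). Ctnnb1, which encodes beta-catenin, had -0.32 (SE 0.14), Axin1, a destruction complex gene, -0.15 (SE 0.08) and Csnk1d -0.17 (SE 0.10). Control replicate 1 and mutant replicate 2 stood at 561 and 532 CPM for Ctnnb1 and at 164 and 154 CPM for Csnk1d. The TMM factors of these libraries were 0.962 and 1.03, so with library totals in place of TMM both genes overlap, whereas Dact1 and Axin1 do not.

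Of 12 planar cell polarity genes, which act in the branch without beta-catenin, 4 had an unadjusted p under 0.05 (33.3%, beside 3.45% of all genes). Without control replicate 1, mutant replicate 1 or mutant replicate 3, 2 did (beside 4.12%, 3.93% and 3.15% of all genes). In this list 2 genes were higher in every mutant (16.7%, beside 4.04% of all genes) and 1 was lower (8.33%, beside 4.83%). Daam1, a formin that binds Dishevelled, was higher in every mutant, with 30.7, 24.3 and 27.4 CPM in controls and 39.7, 36.7 and 43.3 CPM in mutants (log2 fold change 0.54, SE 0.13). Its relative Daam2 was higher as well, with 6.98, 9.14 and 11.8 against 18.7, 12.8 and 12.9 CPM (0.67, SE 0.25). Prickle1 was lower in every mutant, with 66.2, 51.7 and 58.7 against 48.1, 46.0 and 46.1 CPM (-0.33, SE 0.11), while Prickle2 overlapped between the groups (-0.66, SE 0.26). Of 14 further Wnt target genes tested, 0 were higher in every mutant and 0 lower (4.04% and 4.83% of all genes). An unadjusted p under 0.05 was reached by 0 in edgeR (3.45% of all genes) and 1 in DESeq2 (4.45% of all genes). Of their log2 fold changes, 7 were above 0 and 7 below.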

How the data were processed

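RNA of aortic valves from 3 control and 3 mutant samples was sequenced on an Illumina HiSeq. The authors aligned reads to mm10 and quantified genes with Cufflinks and Cuffdiff, and the submitters' processing notes name TopHat2 2.0.13, Bowtie2 2.2.1 and Cuffdiff 2.1.1. The values the authors deposited are estimated counts of fragments per gene and library, not scaled for library size. Values that were not whole (1.66% to 1.87% in a library) were rounded first. Cuffdiff needs reads, so its test was not run.

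Mutants were compared with controls in edgeR 4.0.16 (R 4.3.3) by the two-sided quasi-likelihood F test, with TMM normalization and no covariates, on 15354 genes that reached 10 counts in 3 or more of the 6 libraries. P-values were adjusted by Benjamini-Hochberg over these genes (threshold 0.05), and each SE was derived from the log2 fold change and F. edgeR estimated a biological coefficient of variation of 0.278. Levels per length used the exon union of GENCODE vM21 (GRCm38), which held all 55 genes. The alternatives were DESeq2 1.42.0, RLE normalization or library totals, no filter, a mean count of at least 100, limma-voom (3.58.1) with and without quality weights, the longest transcript as length, the replicate number as a block, and fits without each single library. The genes, the pathway and marker lists and the rules were chosen with earlier results of these data known. Values are given for every gene with groups apart or an unadjusted p under 0.05, for the top 3 per role by control level per length, and for Wnt7a, Axin2 and Fzd1. In the other lists, genes with groups apart are named, at most 4. Genes named beyond these rules, such as Lgr5, Sfrp5, Wnt7b, Gpr124 and Apcdd1, were chosen after their values were seen. Draxin, Amer1, Mzb1 and Cnmd of the lists had no entry under these symbols.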

Additional observations from a re-analysis of the deposited data

How the results depend on the processing

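With DESeq2, 26 genes and 1 Wnt gene had an adjusted p under 0.05, against 0 in edgeR with TMM or RLE, with each filter and with any 1 library left out, and 0 in voom. The count of Wnt genes at an unadjusted p under 0.05 ran from 3 to 7 with 1 library left out, beside 2.83% to 4.12% of all genes. That of Wnt genes lower in every mutant ran from 3 to 6, without an all-gene share for these fits. With library totals without TMM the latter was 1, since Lrp6 and Rspo2 then overlapped, and Wnt2 overlapped among the higher genes. At an unadjusted p under 0.05, leaving out 1 library gave 0 to 2 secretion and membrane genes and 1 to 2 beta-catenin core genes. It gave 2 to 4 planar cell polarity genes and 0 to 1 other targets, beside 2.83% to 4.12% of all genes in these fits. DESeq2 gave 2 secretion and membrane genes, 2 beta-catenin core genes, 5 planar cell polarity genes and 1 other target, beside 4.45% of all genes.

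Of the 46 tested Wnt genes, 23 changed sign on leaving out 1 library. Of the 23 genes that the naming rule chose, 6 did so: Dkk3 (-0.15 to 0.25), Fzd6 (-0.17 to 0.092), Nkd1 (-0.24 to 0.21), Rspo1 (-1.07 to 0.90), Rspo3 (-0.11 to 0.29) and Wif1 (-0.20 to 0.67). With voom quality weights Dkk3 was -0.013, Rspo1 0.47 and Rspo3 -0.017, and with voom alone Nkd1 was -0.019. The cause was not tested. Control and mutant libraries share replicate numbers, but whether these pair them is not stated. The correlations of same-numbered deviations were 0.29, 0.08 and 0.03, and those of the other pairs ran from -0.27 to 0.20. With so few libraries these values cannot settle whether the numbers mark pairs. With the replicate block, 0 genes passed in edgeR, 6 Wnt genes (without Dkk2, with Lrp5 and Wnt16) and 3 beta-catenin core genes had an unadjusted p under 0.05, beside 5.30% of all genes in that fit (3.45% without the block), and Nkd1 was -0.031. Rspo2 and the 9 untested genes had few counts or none, so little can be said of them at this depth.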
